A study of Mus musculus with 3 samples.

Results

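Mature CD8 single-positive (SP) thymocytes are the last stage of the cytotoxic T cell lineage in the thymus: cells that have dropped the CD4 coreceptor, kept CD8 and gained the receptors needed to leave the organ. They were picked here from raw UMIs (unique molecular identifiers, 1 per captured RNA molecule) in barcodes with at least 500 genes and under 10% mitochondrial UMIs. A member had at least 3 UMIs over Ccr7, Klf2, S1pr1 and Ms4a4b, at least 2 UMIs over Cd8a and Cd8b1, no Cd4 UMI, at most 1 UMI over Mki67 and Top2a, no UMI of Foxp3, Zbtb16 or Trdc, and at most 5 Cd74 UMIs. The rule gave 454 members of 23864 kept barcodes, and 25077 barcodes were deposited. The 13 genes named in the rule are described without a test, and the limit on mitochondrial UMIs applied alike to every set compared.

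The study profiled thymus cells of female mice at 4 weeks of age by droplet single-cell RNA sequencing, with 1 library, and so 1 thymus as far as the labels say, for each of 3 genotypes: p53+/-, p53 AD/- and p53-/-. All 3 genotypes carry at least 1 null p53 allele, and no wild-type animal is among them, although the design text of the series speaks of WT for the comparison. What the AD allele changes is not written in the labels; the title of the series speaks of p53 dimers. Each label gives a background of 50% BALB/C, and names the remainder C57BL6, C57BL7 and C57BL8 in the p53+/-, p53 AD/- and p53-/- library. Values below follow the order p53+/-, p53 AD/-, p53-/- where 3 are given. With 1 library for each genotype, no test between genotypes was possible, and a genotype, an animal and a library cannot be told apart.

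Thymocytes that bind MHC class I are directed to the CD8 lineage by the Runx3 transcription factor, which with its partner Cbfb silences Cd4 and restrains Zbtb7b (ThPOK), the factor that commits MHC class II-restricted cells to the CD4 lineage. After selection, SP cells move to the medulla through the chemokine receptor Ccr7, switch on Klf2 and the egress receptor S1pr1, regain surface MHC class I and become able to respond to interferon and cytokines before they leave. The p53 protein works as a tetramer that activates genes of cell cycle arrest and death, and its loss leads to thymic lymphoma in mice.

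Runx3 and the cytotoxic granule genes carry the CD8 identity described below, so the bases before their start sites are shown here (RefSeq starts, build GRCm38.p6). Capitals mark ACCACA, which is TGTGGT read on the other strand, the core that Runx proteins are known to bind. Both strands of the 250 bases before each start were searched for these letters. The upstream window of Runx3 was chr4:135120395-135120644 (+ strand, the more upstream of its 2 start sites), with matches that begin 134 and 126 bases before the start; the window of the other start site, not shown, held no match. That of Nkg7 was chr7:43436888-43437137 (+ strand), with a match at 83 bases, and that of Prf1, encoding perforin, was chr10:61297586-61297835 (+ strand), with a match at 130 bases.
Runx3: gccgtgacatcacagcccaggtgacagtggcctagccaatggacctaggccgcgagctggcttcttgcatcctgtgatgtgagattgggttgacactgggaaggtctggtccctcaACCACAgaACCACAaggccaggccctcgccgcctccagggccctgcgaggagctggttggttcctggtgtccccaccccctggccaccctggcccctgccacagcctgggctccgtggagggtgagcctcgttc
Nkg7: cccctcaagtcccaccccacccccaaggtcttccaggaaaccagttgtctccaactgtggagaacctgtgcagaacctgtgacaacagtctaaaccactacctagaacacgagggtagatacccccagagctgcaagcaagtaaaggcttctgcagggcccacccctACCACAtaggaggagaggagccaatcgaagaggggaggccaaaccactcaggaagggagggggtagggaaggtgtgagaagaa
Prf1: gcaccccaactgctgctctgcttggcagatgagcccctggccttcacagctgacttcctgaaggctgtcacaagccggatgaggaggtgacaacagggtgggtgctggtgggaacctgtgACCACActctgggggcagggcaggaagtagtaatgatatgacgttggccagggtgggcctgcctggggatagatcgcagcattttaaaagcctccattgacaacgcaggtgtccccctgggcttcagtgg
The 3 genes were chosen after their values were seen. Zbtb7b had no match before the more upstream of its start sites and 1 match before the other. At least 1 match lay before 28 of 176 matched genes (15.9%) higher in CD8 than in CD4 SP cells, 25 of 164 genes (15.2%) lower, and 707 of 5597 genes tested (12.6%). Over all 27025 genes of the promoter table the share was 15.9%, so these windows hold the motif at about the general rate, and a match is a description of letters only.

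The targeted gene comes before the other values. Trp53 stood at 74.9 CPM (UMIs per 1000000 UMIs of the summed members, exact 95% Poisson interval 59.7 to 92.7) in p53+/-, 99.4 CPM (79.5 to 123) in p53 AD/- and 63.1 CPM (49.6 to 79.1) in the library labelled p53-/-. The labels do not say which stretch of the gene the null allele lacks, so UMIs counted to Trp53 check the genotype labels little.

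The members numbered 141, 133 and 180, with a median of 7784, 5930 and 6040 UMIs and 2214, 1932 and 2011 genes per cell. Mitochondrial UMIs had a median of 4.16%, 3.18% and 3.91%, and ribosomal protein genes held 33.4%, 32.3% and 33.0% of UMIs. Malat1, a long RNA retained in the nucleus, held a median of 2.67%, 1.09% and 3.30% of a member's UMIs, lowest in p53 AD/-, which was also the library with the fewest UMIs in total. Between libraries 15 to 29 barcodes were shared, of which 3 were members in 1 library and none were members in both.

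The label held against its markers. Nkg7, a membrane protein of cytotoxic granules, was seen in 64.5%, 60.2% and 59.4% of members, in 5.32%, 3.12% and 0.645% of mature CD4 SP cells, and in 0.359%, 0.398% and 0.206% of preselection double-positive (DP) cells. Runx3 was seen in 74.5%, 51.1% and 68.9% of members, in 21.3%, 14.1% and 18.1% of CD4 SP cells, and in 1.93%, 1.59% and 2.65% of DP cells. Median depth was 6326, 5483 and 5586 UMIs in the CD4 SP set and 2752, 2064 and 2381 UMIs in the DP set, below the members in each library. With every cell thinned to 1500 UMIs (1 member and 1 CD4 SP cell were shallower and left out), Nkg7 was seen in 27.0%, 31.6% and 33.0% of members and in at most 4.26% of CD4 SP cells, and Runx3 in 31.2%, 24.1% and 33.0% against 9.57%, 4.76% and 6.45%. Runx3 or Nkg7 was seen in 124, 100 and 147 members, or 87.9% (exact 95% Clopper-Pearson interval 81.4 to 92.8), 75.2% (67.0 to 82.3) and 81.7% (75.2 to 87.0), and 17, 33 and 33 members held neither. Zbtb7b was seen in 1, 4 and 4 members only. Dapl1, a gene of resting CD8 cells, was seen in 10, 4 and 19 members, a small minority in each library. The rule genes themselves were as fixed: Cd8a was at 521, 720 and 530 CPM, Cd8b1 at 824, 1104 and 934 CPM and Ccr7 at 190, 220 and 363 CPM.

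**Figure D1:**
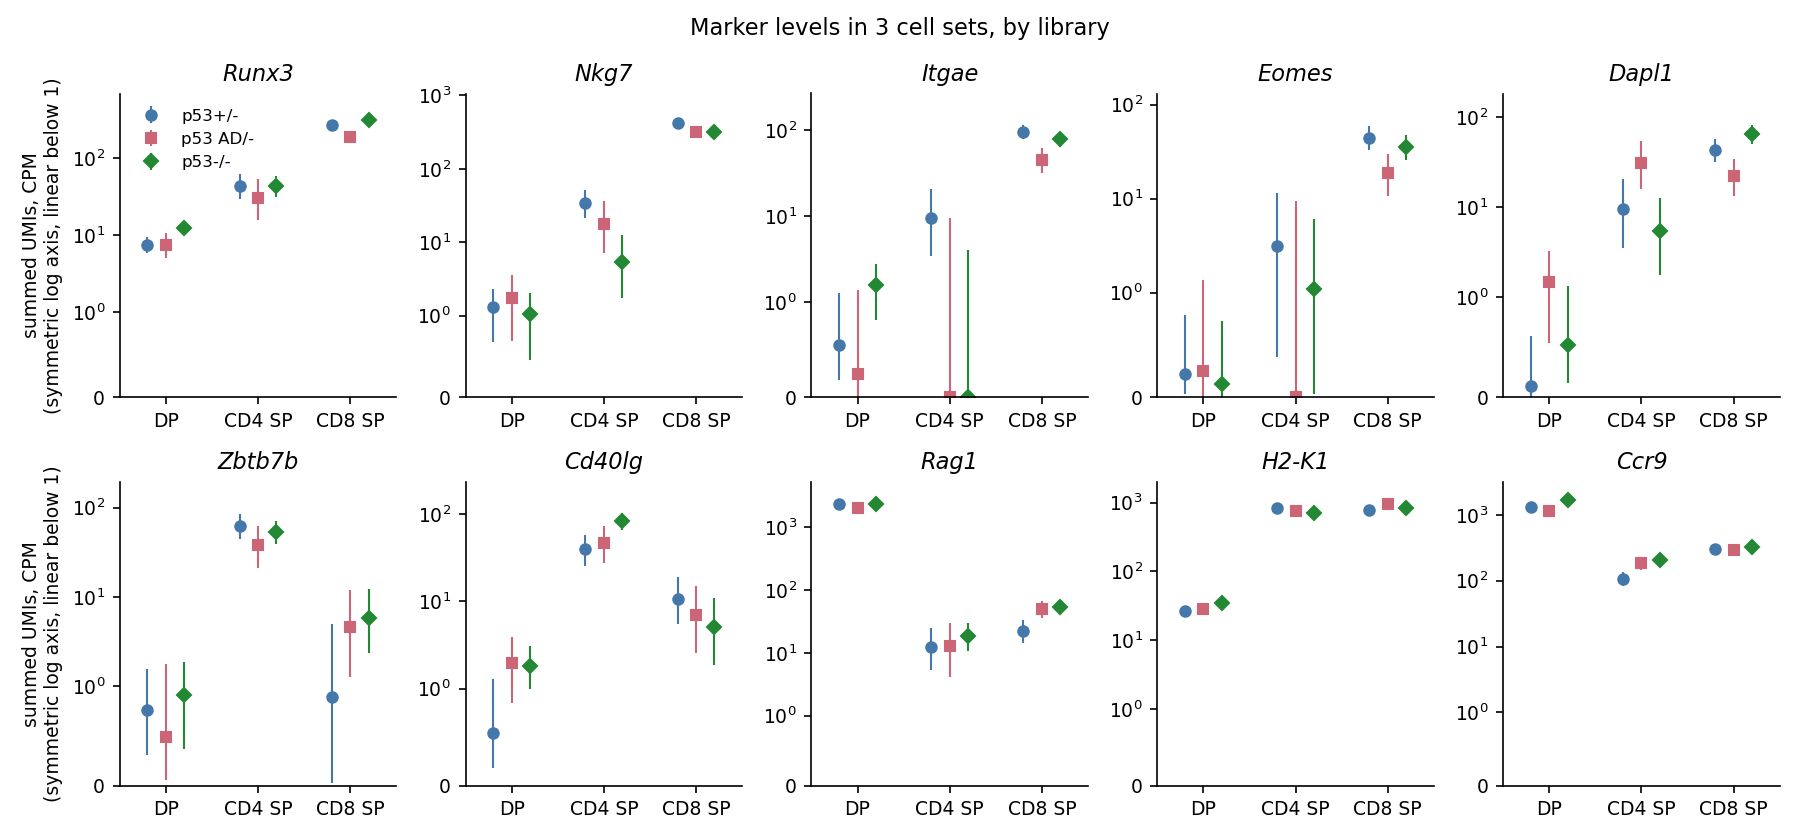
Levels of 10 genes in preselection DP, mature CD4 SP and mature CD8 SP cells of each library, in CPM of summed UMIs on a symmetric log axis that is linear below 1. Points are libraries and bars are exact 95% Poisson intervals (counting error only): Runx3, Nkg7, Itgae and Eomes were highest in CD8 SP cells in all 3 libraries, Zbtb7b and Cd40lg in CD4 SP cells and Rag1 in DP cells. The gate of the DP set required a Rag1 UMI, so the place of Rag1 was fixed by the rule.

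Markers of B, myeloid, dendritic, erythroid and NK cells were low. The B cell list summed to 103, 90.2 and 141 CPM in the members against 34.5, 22.9 and 33.6 CPM in the CD4 SP set, with 3 of 7 markers at 0 in each library, Ms4a1 and Pax5 always among them. Ighm, its one gene with enough UMIs to test, stood higher in CD8 than in CD4 SP cells (log2 fold change 2.08, edgeR adjusted p = 4.83e-13) and lower than in preselection DP cells (-1.13). The myeloid list reached 109, 75.2 and 138 CPM with Csf1r at 0 throughout, the dendritic list 15.2, 11.6 and 15.1 CPM with Xcr1 and Siglech at 0, and the erythroid list at most 12.5 CPM. The NK and innate-like list stood at 7.13, 6.94 and 22.7 CPM with Klra1, Sox13 and Il17a at 0 in each. The Treg list, whose defining gene Foxp3 the rule set to 0, stood at 458, 387 and 618 CPM, below the CD4 SP set (809, 755 and 790 CPM) and above DP cells (158, 164 and 172 CPM). The cycling list was at 778, 1198 and 829 CPM in the members and 985, 1284 and 1010.2 CPM in DP cells. Markers of preselection DP cells summed to 180, 308 and 281 CPM. At least 1 UMI of Rag1, Rag2 or Arpp21 was found in 27, 23 and 44 members (19.1%, 17.3% and 24.4%), against 16.0%, 12.5% and 18.1% of CD4 SP cells. The part of such cells in the results was not tested, other than by the counts without the members holding Rag1, Rag2 or Arpp21.

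Cells on either side of the maturation threshold differed in Rag1 and H2-K1. Members with the lowest sum allowed, 3 UMIs (16, 13 and 12 cells), had 90.8, 30.6 and 68.0 CPM of Rag1, the recombinase of DP cells, and 409, 367 and 425 CPM of H2-K1, an MHC class I heavy chain. Cells just outside with a sum of 2 (35, 13 and 41 cells) had 335, 188 and 513 CPM of Rag1 and 150, 75.3 and 297 CPM of H2-K1, whereas members with a sum of 10 or more (91, 84 and 126 cells) had 18.7, 48.0 and 24.9 CPM of Rag1 and 862, 1113 and 908 CPM of H2-K1. At the coreceptor threshold, members with 2 Cd8 UMIs (10, 11 and 20 cells) had 87.4, 104 and 267 CPM of Runx3, and cells just outside with 1 (23, 36 and 43 cells) had 26.8, 32.8 and 102 CPM. Nkg7 stood at 122, 20.9 and 143 CPM in these members and at 0, 5.47 and 149 CPM just outside, so it did not separate the 2 sides in p53-/-.

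Within the members, S1pr1, a gene of the rule, varied from cell to cell. It was seen in 77, 66 and 101 members (54.6%, 49.6% and 56.1%). In members with S1pr1, Nkg7 stood at 531, 402 and 356 CPM against 247, 227 and 271 CPM without it, and the integrin gene Itgae at 123, 58.7 and 103 CPM against 57.4, 29.6 and 43.2. The interferon-inducible Ifi27l2a was likewise higher with S1pr1 in each library (1273, 1486 and 1092 CPM against 662, 754 and 664). The gut-homing receptor Ccr9 and the immaturity marker Cd24a went the other way: Ccr9 was at 215, 202 and 232 CPM with S1pr1 and 446, 400 and 467 CPM without it, and Cd24a at 14.9, 28.3 and 22.8 CPM against 44.2, 74.1 and 78.1 CPM. Runx3 showed no shared direction (253, 202 and 335 CPM with S1pr1, 309, 178 and 298 CPM without it). Nor did Rag1, at 17.9, 56.5 and 37.0 CPM with S1pr1 and 28.7, 42.0 and 76.1 CPM without it, which was higher with S1pr1 in p53 AD/- only. Cells with S1pr1 were also deeper, with medians of 8304, 6514 and 6779 UMIs against 6608, 5530 and 5494, and the part of depth in these differences was not tested.

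CD8 SP cells made up 1.73% (exact 95% interval 1.46 to 2.04) of kept barcodes in p53+/-, 2.16% (1.81 to 2.55) in p53 AD/- and 1.89% (1.62 to 2.18) in p53-/-, and the 3 intervals overlap. Of barcodes that passed the maturation sum and the exclusions, they were 32.0% (27.6 to 36.5), 35.2% (30.4 to 40.2) and 29.0% (25.4 to 32.7). The CD4 SP set, chosen by the same rule with at least 1 Cd4 UMI and no Cd8a or Cd8b1 UMI, held 94, 64 and 155 cells. CD8 SP cells were thus 60.0% (53.4 to 66.3), 67.5% (60.5 to 74.0) and 53.7% (48.2 to 59.2) of both sets together. On that last measure, at full depth, the intervals of p53 AD/- and p53-/- did not overlap, while that of p53+/- overlapped both. These intervals cover counting error only, and a gate on UMIs also depends on depth. After thinning to 1500 UMIs before gating, the members were 0.632% (0.470 to 0.833), 1.19% (0.923 to 1.51) and 0.912% (0.727 to 1.13) of barcodes, and with at least 1000 genes per barcode 1.83% (1.54 to 2.16), 2.78% (2.33 to 3.29) and 2.10% (1.81 to 2.43). Under both settings the interval of p53 AD/- lay above that of p53+/-, while under the other gates and cell filters these 2 intervals overlapped. The limit of 1000 genes left 7647, 4750 and 8506 kept barcodes, with 140, 132 and 179 members. Thinning left 50, 66 and 83 CD8 SP and 28, 23 and 62 CD4 SP cells, and the interval of the share of both sets together was not worked out there.

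**Figure D2:**
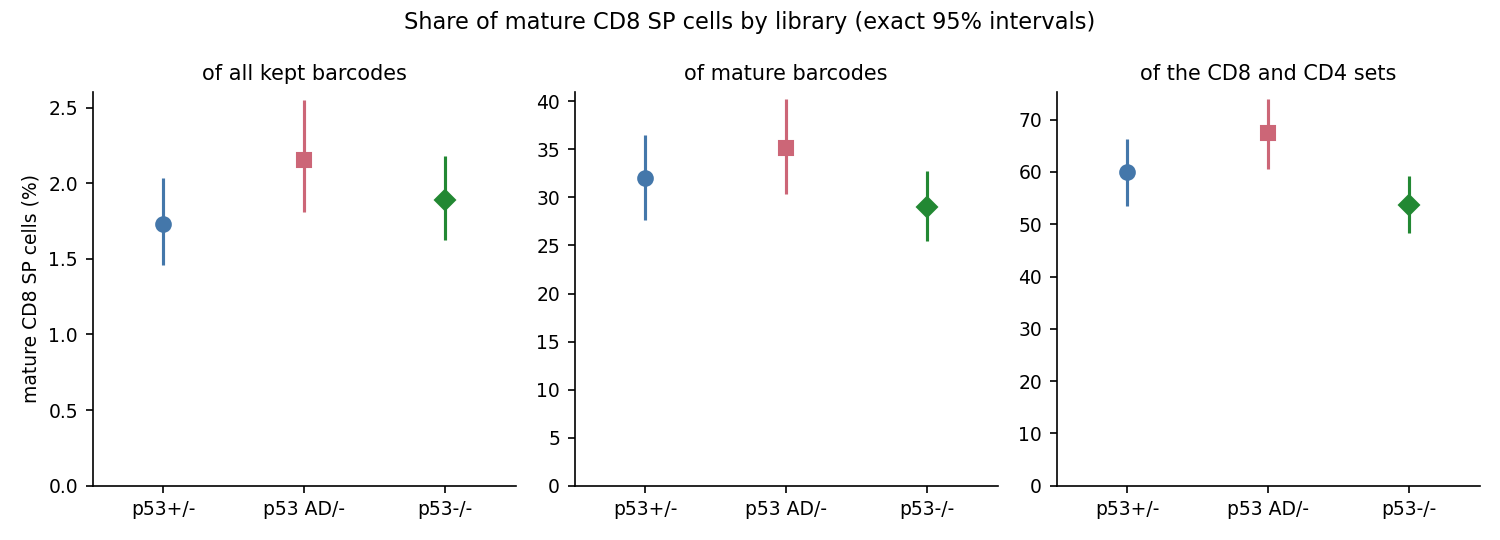
Mature CD8 SP cells as a percentage of all kept barcodes, of mature barcodes and of the CD8 and CD4 SP sets together, in each library. Points are the shares and bars exact 95% Clopper-Pearson intervals, all at full depth. In the right panel the p53 AD/- library (67.5%) lies above the p53-/- library (53.7%) without overlap, and this was not worked out after thinning.

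The comparison with CD4 SP cells of the same libraries, chosen by the same maturation sum, shows which genes set the lineage apart, although the sets were not equal in their preselection markers (given with the lists). UMIs were summed for each library and set, and edgeR's quasi-likelihood test with the library as a block was run on the 6 sums, with Benjamini-Hochberg adjustment over 6962 genes. In CD8 SP cells 238 genes were higher (3.42% of those tested) and 205 were lower (2.94%) at an adjusted p under 0.05. The 12 highest held Nkg7, Klrd1 and Prf1 of the cytotoxic list, Runx3 and Eomes, and the lowest held the CD4 lineage factor Zbtb7b with the costimulatory genes Tnfrsf4 and Cd40lg. With DESeq2, 52 were higher and 42 lower, and 94 of the 443 genes were called by both tools. Without cells that held Rag1, Rag2 or Arpp21, edgeR called 140 higher and 132 lower.

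Nkg7 stood at 416, 320 and 321 CPM in CD8 SP cells against 34.5, 17.8 and 5.42 CPM in CD4 SP cells, a log2 fold change of 4.38 (edgeR adjusted p = 7e-32). Runx3 (chromosome 4, 135120652 to 135177990, GRCm38) was at 275, 191 and 320 CPM against 43.9, 30.5 and 43.4 CPM, a log2 fold change of 2.82 (edgeR adjusted p = 3e-26). For both genes the lowest CD8 SP value lay far above the highest CD4 SP value. Genes named by rank were picked for a large fold change with 1 direction in all libraries, so a lack of overlap is a description, here and below. The share of all tested genes without overlap was not worked out. Within the libraries the log2 ratio of Runx3 was 2.65, 2.64 and 2.88, or 2.72 ± 0.14 (SD, n = 3). Eomes, a T-box factor of cytotoxic and memory CD8 cells, was at 44.6, 18.5 and 35.3 CPM against 3.14, 0 and 1.08 CPM (log2 fold change 4.45, edgeR adjusted p = 1.7e-10). Dapl1 was at 42.8, 22 and 63.9 CPM against 9.41, 30.5 and 5.42 CPM (1.98, edgeR adjusted p = 1.6e-05). It was the marker that did not separate the sets everywhere: in p53 AD/- it was higher in CD4 SP cells, where 12 UMIs came from 1 cell, and its call was lost with DESeq2, without the block and without the p53-/- library.

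Surface and granule genes followed. Itgae, the integrin chain CD103 that binds E-cadherin on epithelium, was at 96.3, 45.1 and 78.2 CPM in CD8 SP cells and at 9.41, 0 and 0 CPM in CD4 SP cells, where its 6 UMIs came from 1 cell (log2 fold change 4.65, edgeR adjusted p = 1.9e-16). It was seen in 56, 29 and 62 members. Klrd1, encoding the NK receptor chain CD94, stood at 56.2, 30.1 and 45.4 CPM against 3.14, 0 and 5.42 CPM (3.71, edgeR adjusted p = 1.8e-11). Prf1, the pore-forming protein perforin, stood at 22.3, 16.2 and 32.0 CPM against 3.14, 0 and 2.17 CPM (3.62, edgeR adjusted p = 1.9e-07). Each of the 3, picked by rank, was lower in every CD4 SP sum than in every CD8 SP sum.

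Plac8 had the largest log2 fold change among the genes higher in CD8 SP cells, 5.47 (edgeR adjusted p = 2e-17), from 91.8, 42.8 and 69.0 CPM in 27, 23 and 36 members against 0, 2.54 and 2.17 CPM. Ly6c2, a surface protein of memory-type CD8 cells, stood at 58.8, 16.2 and 50.5 CPM against 0, 0 and 3.25 CPM (4.87, edgeR adjusted p = 1e-12), from 15, 7 and 21 members. Its close copy Ly6c1 was at 17.8, 23.1 and 21.0 CPM against 1.57, 2.54 and 0 CPM (4.18), and reads of these near-identical genes could have been split between them, so each is uncertain. Cxxc5, a CXXC zinc finger gene, was at 31.2, 43.9 and 40.4 CPM against 3.14, 0 and 3.25 CPM (3.89). The lipocalin Lcn4 (3.41) and the actin crosslinker Actn2 (2.77) completed the 12 highest, at 11.6 to 35.3 CPM and 32.4 to 39.5 CPM in CD8 SP cells against at most 5.08 and 9.41 CPM.

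**Figure D3:**
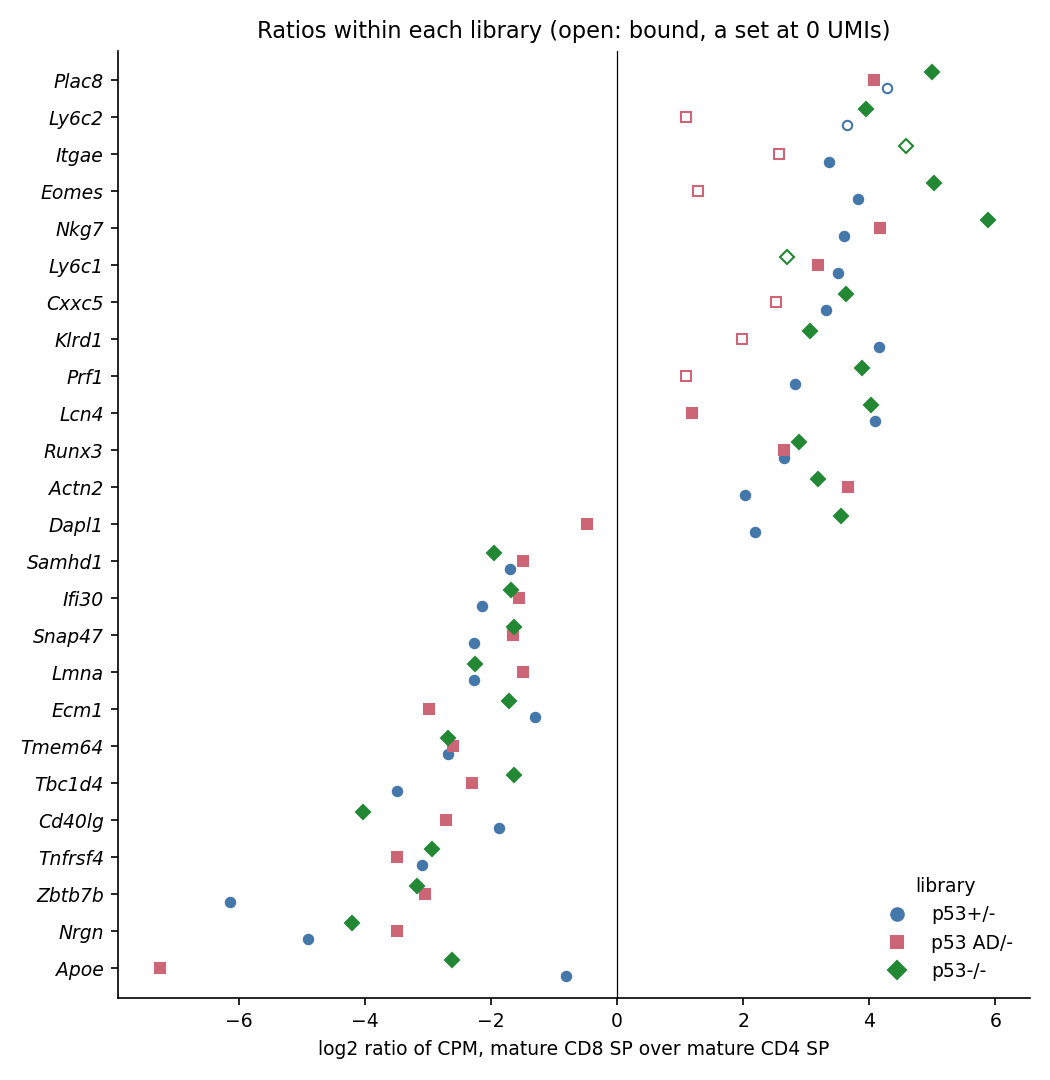
Log2 ratio of CPM in mature CD8 SP over mature CD4 SP cells within each library, for the 12 highest and 12 lowest genes and the marker Dapl1. Open symbols are bounds where the CD4 SP or CD8 SP sum had 0 UMIs; all symbols of the upper 12 genes lie above 0 and all of the lower 12 below 0, whereas Dapl1 lies below 0 in p53 AD/-.

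Among the genes lower in CD8 SP cells, Zbtb7b stood at 0.891, 4.62 and 5.89 CPM against 62.8, 38.1 and 53.1 CPM in CD4 SP cells, a log2 fold change of -3.68 (edgeR adjusted p = 1.5e-12), and was seen in 32, 14 and 41 CD4 SP cells. Tnfrsf4, the costimulatory receptor OX40, stood at 20.5, 17.3 and 28.6 CPM against 176, 196 and 220 CPM (-3.06, edgeR adjusted p = 1.5e-25). Cd40lg, by which helper cells signal to B cells and dendritic cells, was at 10.7, 6.94 and 5.05 CPM against 39.2, 45.8 and 82.4 CPM (-2.83, edgeR adjusted p = 3.8e-11). In all 3 genes, picked by rank, every CD8 SP sum lay below every CD4 SP sum.

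The other low genes were of mixed kinds. Samhd1, which breaks down deoxynucleotides, was at 54.4, 78.6 and 73.2 CPM against 177, 221 and 282 CPM (-1.69, edgeR adjusted p = 2e-17). Nrgn, a calmodulin-binding protein, was at 0.891, 9.25 and 2.52 CPM against 26.7, 104 and 46.6 CPM (-3.80), and Tbc1d4, a regulator of Rab GTPases, at 12.5, 4.62 and 10.1 CPM against 140, 22.9 and 31.4 CPM (-2.68). Tmem64 (-2.58), Ecm1 (-2.07), the lamin gene Lmna (-2.02), Snap47 (-1.70) and the thiol reductase Ifi30 (-1.69) were also lower in each library. The calls of Snap47 and Ifi30 were lost with DESeq2 and that of Ecm1 without the block. Apoe had the lowest log2 fold change, -5.65, but 549 of its 556 UMIs in the p53 AD/- CD4 SP sum came from 1 cell. Myeloid markers stood at 3448 CPM in that sum against 122 and 176 CPM in the other CD4 SP sums, and the call of Apoe was lost with DESeq2.

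Read by lists of related genes, the cytotoxic list had 6 of 18 members measured well enough to test, all 6 higher in CD8 SP cells and 4 of them (not Dapl1 and Xcl1) also with DESeq2. The median log2 fold change was 2.80, against 0.00 over all genes. A member seen only in CD8 cells passes the count filter through them, so this count is a description. Ctsw, a protease of cytotoxic cells, was at 230, 215 and 251 CPM against 80.0, 99.2 and 85.7 CPM (log2 fold change 1.5, edgeR adjusted p = 5.02e-15), and the chemokine Xcl1 at 51.7, 13.9 and 48.8 CPM against 22, 0 and 41.2 CPM (0.83, edgeR adjusted p = 0.0495). Of 6 memory-like genes tested 3 were higher (Ly6c2, Eomes and Klrd1) and none lower. Of 12 CD4 lineage genes 6 were lower, among them Gata3 (-1.26, edgeR adjusted p = 1.82e-05) and Cd5 (-0.75, edgeR adjusted p = 3.75e-07), and Slamf6 was higher (0.88, not called by DESeq2). Of 11 CD8 lineage regulators Runx3 and Eomes were higher. Another 5 were lower, transcription and chromatin factors that thymocytes of both lineages use: Runx1 (-0.92), Bcl11b (-0.52), Ets1 (-0.39), Tcf7 (-0.34) and Satb1 (-0.32), of which DESeq2 called Bcl11b and Ets1.

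Migration and cytokine genes separated the lineages in part. Of 16 migration genes tested Itgae and Ccr9 were higher and Itgb2 and Arhgap15 lower, the latter pair without a DESeq2 call. Ccr9 stood at 308, 295 and 328 CPM against 107, 183 and 204 CPM (log2 fold change 0.99, edgeR adjusted p = 2.7e-10). Of 21 cytokine receptor and feedback genes 4 were lower and 1 higher, and DESeq2 called Il7r and Il6ra only. Il7r, the interleukin 7 receptor chain, was at 88.2, 77.5 and 124 CPM against 231, 188 and 263 CPM (-1.17, edgeR adjusted p = 6.47e-12), and Il6ra at 16.9, 22 and 22.7 CPM against 51.8, 89.0 and 69.4 CPM (-1.67, edgeR adjusted p = 6.03e-08). Neither gene overlapped between the sets, a description, as both led the lower genes of their list.

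Of 21 maturation genes tested 10 were higher and 3 lower, 7 of them also with DESeq2. The nonclassical MHC class I gene H2-Q7 was at 120, 61.3 and 114 CPM against 50.2, 28.0 and 43.4 CPM (1.36, edgeR adjusted p = 8.87e-09), and is uncertain because H2-Q6 is a near-identical copy. Ly6a was higher (1.53) and the tetraspanin Tspan32 lower (-1.52). Among 8 Gimap genes, GTPases of lymphocyte survival, Gimap5 was higher at 109, 79.8 and 120 CPM against 47.1, 38.1 and 40.1 CPM (1.41, edgeR adjusted p = 3.1e-09). Gimap4 and Gimap9 were lower without a DESeq2 call.

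Interferon, receptor signalling and metabolic genes differed less. Of 24 interferon-stimulated genes Ifi27l2a was lower (1027, 1144 and 917 CPM against 1550, 1853 and 1263 CPM, log2 fold change -0.53, edgeR adjusted p = 4.25e-08) and Psmb8 slightly higher (0.28), with a list median of -0.12. Of 24 T cell receptor signalling genes 2 were higher and 5 lower, and DESeq2 called Cd5 and Cd2 only. Of 15 glycolysis genes Eno3 was lower (-1.46) and Pgam1 higher, of 74 nuclear-encoded respiratory chain genes 5 were higher (median 0.16), of 13 mitochondrially encoded genes, whose share the cell filter limits in both sets, 7 were higher (median 0.21), and of 16 fatty acid oxidation genes none was called. DESeq2 called only Eno3, Cox8a and mt-Nd2 among these. Of 15 p53 target genes Fas (-0.71, edgeR adjusted p = 0.0167) and Btg2 (-0.42, edgeR adjusted p = 0.0168) were lower, neither called by DESeq2, and Trp53 itself was not called (-0.22, edgeR adjusted p = 0.53). Of 5 DP markers tested 3 were higher in CD8 than in CD4 SP cells: Rag1 (1.51, edgeR adjusted p = 0.000106), Arpp21 (1.29, edgeR adjusted p = 0.00661) and Dntt (0.96, edgeR adjusted p = 0.0102).

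T cell receptor beta variable (Trbv) use was read from cells with 1 leading Trbv gene: 70, 48 and 62 members, 41, 25 and 60 CD4 SP cells, and 1206, 636 and 1014 DP cells. The 3 Trbv13 genes led in 32.9%, 29.2% and 35.5% of such members. They led in 14.6%, 8.0% and 18.3% of CD4 SP cells and 20.4%, 17.8% and 17.2% of DP cells. The members had the highest share in each library, but their exact intervals overlapped those of CD4 SP cells in all 3. These were 22.1 to 45.1, 17.0 to 44.1 and 23.7 to 48.7 in members. In CD4 SP cells they were 5.57 to 29.2, 0.984 to 26.0 and 9.52 to 30.4. The intervals of members and DP cells overlapped in p53+/- and p53 AD/- but not in p53-/- (14.9 to 19.6 in DP cells). Trbv31 led in 1.43%, 2.08% and 1.61% of members and in 12.2%, 8.0% and 5.0% of CD4 SP cells. The group Trbv12-1, Trbv12-2, Trbv15, Trbv16 and Trbv26 led in 8.57%, 8.33% and 8.06% of members, about as in CD4 SP cells (9.76%, 4.00% and 8.33%) and far below DP cells (22.6%, 25% and 24.4%). In the fit, Trbv2 was lower in CD8 than CD4 SP cells (log2 fold change -1.04, edgeR adjusted p = 0.0317). Of the Trbv13 genes only Trbv13-1 was tested there, and it was not called (0.33, edgeR adjusted p = 0.795). In the fit against DP cells, Trbv13-2 was lower in CD8 SP cells (-0.74, edgeR adjusted p = 0.00978). Trbv13-1 and Trbv13-3 were not called in that fit (0.18 and -0.05, edgeR adjusted p = 0.621 and 0.947). All Trbv genes tested there except Trbv13-1 had a log2 fold change below 0, such as Trbv2 (-1.25), Trbv12-1 (-2.55) and Trbv31 (-2.88). The fit measures a gene's part of all UMIs, whereas the shares are among cells with a leading Trbv gene, so they are unlike measures. The Trbv groups were chosen after their values were seen and were not tested as groups.

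Against preselection DP cells, the comparison shows what a cell gains and loses on the way to the mature CD8 stage. The DP set had Rag1, Cd4 and Cd8 UMIs and none of the 4 maturation genes, 3063, 1761 and 2907 cells. Of 10099 genes tested 2593 were higher in CD8 SP cells (25.7%) and 2566 lower (25.4%). DP cells were shallower, and with 1500 UMIs per cell 618 and 682 genes were called.

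Nkg7 rose the most, to 416, 320 and 321 CPM from 1.31, 1.72 and 1.04 CPM in DP cells, a log2 fold change of 8.52. The retinoic acid receptor gene Rarg (16.9, 11.6 and 14.3 CPM against 0, 0 and 0.130 CPM, log2 fold change 7.97, edgeR adjusted p = 1.74e-28), Klrd1 (7.85), Eomes (7.75), Rflnb (7.48) and the T and NK cell receptor Cd7 (78.4, 82.1 and 90.9 CPM against 0.436, 0.492 and 0.911 CPM, 7.43) followed. Runx3 was at 7.52, 7.38 and 12.2 CPM in DP cells (5.31), and Dapl1 rose by 6.73. Among the lowest genes, Lypd1, Ugt8a, Cdkl1, Scn4b and the histone gene Hist1h2an, had no UMI in any CD8 SP sum. The calls of Lypd1, Ugt8a, Cdkl1 and Hist1h2an were lost after thinning (edgeR adjusted p = 0.0528 to 0.397). Lypd1 was at 6.76, 30.8 and 12.5 CPM in DP cells, and a floor of 3 UMIs in each CD8 SP sum puts its log2 ratio at -1.34, -3.15 and -2.31 or lower.

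By lists, all 24 interferon-stimulated genes tested were higher than in DP cells, with a median log2 fold change of 2.91 against -0.06 over all genes. Ifi27l2a was at 21.4, 21.4 and 18.6 CPM in DP cells (6.06), Ifit1 at 1.74, 2.46 and 0.651 CPM against 40.1, 65.9 and 77.4 CPM in the members (5.69), and Isg15 at 15.0, 16.2 and 8.85 CPM against 151, 168 and 194 CPM (4.13). Of 21 maturation genes 18 were higher and 2 lower. H2-K1 was at 791, 962 and 848 CPM against 26.5, 28.5 and 34.2 CPM (5.27), Il7r rose by 4.93 and the survival gene Bcl2 by 3.99 (311, 250 and 353 CPM against 24.5, 23.6 and 29.7 CPM). Cd24a fell by 2.36 and Ly6e by 1.28 on the log2 scale. Among 8 Gimap genes 7 were higher, led by Gimap4 (283, 297 and 280 CPM against 6.32, 9.10 and 9.50 CPM, 5.56).

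Of 18 migration genes 11 were higher and 5 lower. The integrin chains Itgae (6.90) and Itgb7 (4.83) and the retention molecule Cd69 (2.24) rose, while Ccr9 fell by 1.72 (308, 295 and 328 CPM against 1304, 1158 and 1667 CPM) and the chemokine receptor Cxcr4 by 1.65. All 13 histone genes tested were lower (median -2.42), as were all 8 DP markers (median -4.40), Rag1 itself being used by the gate and not tested. A gene seen in 1 set only passes the count filter through that set, so these counts, and those of the lists that rose, are a description. Of 74 respiratory chain genes 61 were higher (median 0.51) and of 18 glycolysis genes 11 were higher and 2 lower (median 0.73). Of 21 p53 targets 4 were higher, among them Bax (0.87) and Aen (1.04), and 8 lower, among them Trp53inp1 (81.1, 52.0 and 103 CPM against 450, 326 and 473 CPM, -1.97).

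Between genotypes within the members there is no replicate check. Ratios of CPM are given with exact conditional binomial 95% intervals, which cover counting error only, and a gene was counted as past the fold with at least 50 UMIs over the pair of libraries and an absolute log2 ratio of at least 1. The 3 pairs share libraries and are not independent. A gene can pass this minimum through 1 library of the pair alone, so counts of listed genes above or below 0 are a description. For p53 AD/- over p53-/-, 52 of 4481 genes were higher past the fold (1.16%) and 214 lower (4.78%). For p53 AD/- over p53+/-, 74 of 4311 were higher (1.72%) and 128 lower (2.97%). For p53-/- over p53+/-, 52 of 4821 were higher (1.08%) and 15 lower (0.311%). The median log2 ratio over all measured genes was -0.03, 0.05 and 0.07.

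Several genes of the CD8 lineage and of effector, memory-like or resting CD8 cells had their lowest values in the p53 AD/- library. Runx3 was at 275, 191 and 320 CPM, so that p53 AD/- over p53-/- gave a log2 ratio of -0.74 (-1.02 to -0.48), and the ratio over p53+/- was -0.53 (-0.81 to -0.25). In CD4 SP cells, with few UMIs, these ratios were -0.51 and -0.53. Eomes, at 44.6, 18.5 and 35.3 CPM, gave -0.93 (-1.86 to -0.07) and -1.27 (-2.18 to -0.43), and was seen in 24, 10 and 20 members, or 17.0% (11.2 to 24.3), 7.52% (3.66 to 13.4) and 11.1% (6.92 to 16.6). Itgae, at 96.3, 45.1 and 78.2 CPM, gave -0.80 (-1.37 to -0.24) and -1.09 (-1.66 to -0.55). Thinned to 1500 UMIs, Itgae was seen in 12.8%, 5.26% and 12.8% of members, and its unthinned shares were 39.7%, 21.8% and 34.4%.

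Il2rb, the beta chain of the interleukin 2 and 15 receptors, was at 41.9, 26.6 and 53 CPM (-1.0, -1.75 to -0.29, over p53-/-). Ly6c2, at 58.8, 16.2 and 50.5 CPM, gave -1.64 (-2.60 to -0.78) over p53-/- and -1.86 (-2.81 to -1.01) over p53+/-. Among members with under 5% mitochondrial UMIs the latter was -0.36. Dapl1, a gene of resting CD8 cells although the cytotoxic list holds it, was at 42.8, 22 and 63.9 CPM. It gave -1.54 (-2.35 to -0.80) and -0.96 (-1.81 to -0.17), from few cells. Xcl1 stood at 51.7, 13.9 and 48.8 CPM, from 8, 4 and 11 members with up to 36 UMIs in 1 cell. Ccl5, a chemokine of effector and memory cells, had 485, 1 and 99 UMIs from 7, 1 and 4 members, with 292 and 61 UMIs in the leading cell of p53+/- and p53-/-, so its ratios rest on a handful of cells.

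Nkg7 and Ctsw differed less. Nkg7, at 416, 320 and 321 CPM, did not differ beyond counting error between p53 AD/- and p53-/- (-0.01, -0.23 to 0.22) and was lower in both than in p53+/- (-0.38, -0.60 to -0.16, for p53 AD/-). Ctsw, at 230, 215 and 251 CPM, had intervals that span 0 in every pair. Of the cytotoxic list 7 of 18 genes were measured for p53 AD/- over p53-/-, and all 7 were below 0 with a median of -0.98. Against p53+/- 6 were measured, all below 0, with a median of -0.93. Of 12 memory-like genes 7 were measured over p53-/- (median -1.0) and 6 over p53+/- (median -1.08), again all below 0. Over all measured genes the median was -0.03 over p53-/- and 0.05 over p53+/-, and the share of them below 0 was not worked out. A listed gene that is low in p53 AD/- can pass the minimum of UMIs through the other library. The counts below 0 and the medians of both lists are therefore a description. The lists share Klrd1 and Ccl5. In the CD4 SP set, where these genes have few UMIs, the memory-like medians were -1.20 and -1.57 and the cytotoxic ones 0.21 and -0.50. Between p53-/- and p53+/- the medians in the members were -0.14 and -0.22, and the latter was 0.53 among members with under 5% mitochondrial UMIs. The p53 AD/- library was the shallowest per member and had the lowest Malat1 and mitochondrial shares, and its DP markers summed to 308 CPM against 180 CPM in p53+/- and 281 CPM in p53-/-. The part of these in the ratios was not tested.

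**Figure D4:**
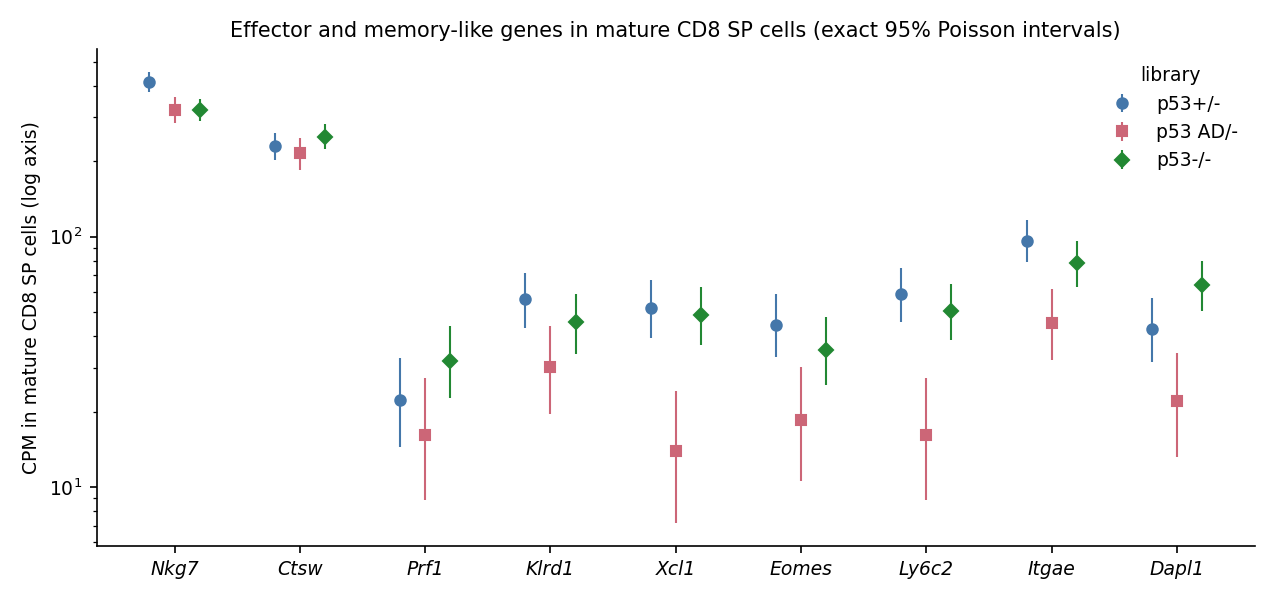
Levels of 9 genes in mature CD8 SP cells of each library, in CPM on a log axis. All are of the cytotoxic or memory-like lists except Itgae, of the migration list, and Dapl1 is a gene of resting CD8 cells. Points are libraries and bars exact 95% Poisson intervals (counting error only): Xcl1, Eomes, Ly6c2, Itgae and Dapl1 are lowest in p53 AD/-, while the intervals of Ctsw overlap in all 3 libraries.

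Glycolytic enzymes had their highest values in p53 AD/-. Gapdh, which oxidises glyceraldehyde phosphate, was at 616, 1272 and 658 CPM, a log2 ratio of 0.95 (0.82 to 1.09) over p53-/- and 1.05 (0.91 to 1.19) over p53+/-. Eno1, an enolase, was at 265, 484 and 228 CPM (1.09 and 0.87), pyruvate kinase Pkm at 203, 407 and 204 CPM (1.0 and 1.0), and the lactate dehydrogenase gene Ldhb at 66.8, 154 and 90.9 CPM (0.76 and 1.20). Hexokinase Hk1 went the other way, at 39.2, 25.4 and 42.9 CPM. Over 12 measured glycolysis genes the median was 0.78 over p53-/- and 0.80 over p53+/-, with 10 of 12 above 0 in each, and 0.02 for p53-/- over p53+/-. The same median over p53-/- was 0.63 in the CD4 SP set, 0.45 in the DP set and 0.40 over all kept barcodes, so the direction was not limited to CD8 SP cells, and the difference between sets was not tested.

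Respiratory chain RNAs split by their genome of origin. Of 74 nuclear-encoded genes 69 were above 0 for p53 AD/- over p53-/- (median 0.32) and 66 over p53+/- (median 0.20). Of 13 mitochondrially encoded genes 12 were below 0 in both pairs (medians -0.69 and -0.74). The complex I gene mt-Nd6, encoded on the opposite strand to the rest, was at 138, 6.94 and 107 CPM (-3.95, -5.42 to -2.78, over p53-/-), mt-Nd3 at 1145, 369 and 1029 CPM (-1.48), mt-Nd5 at 789, 259 and 665 CPM (-1.36) and mt-Atp8 at 338, 151 and 437 CPM (-1.53). The exception was mt-Cytb, at 4272, 4801 and 3868 CPM (0.31). For mt-Nd6 the ratio over p53-/- was -4.04 in the CD4 SP set and -2.60 in the DP set, so this low value was shared by the other sets of the library. The mitochondrially encoded median over p53-/- was -0.81 in CD4 SP cells, -0.48 in DP cells and -0.72 over all kept barcodes. The nuclear-encoded median was 0.23, 0.31 and 0.19 there, so the split was not limited to CD8 SP cells.

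**Figure D5:**
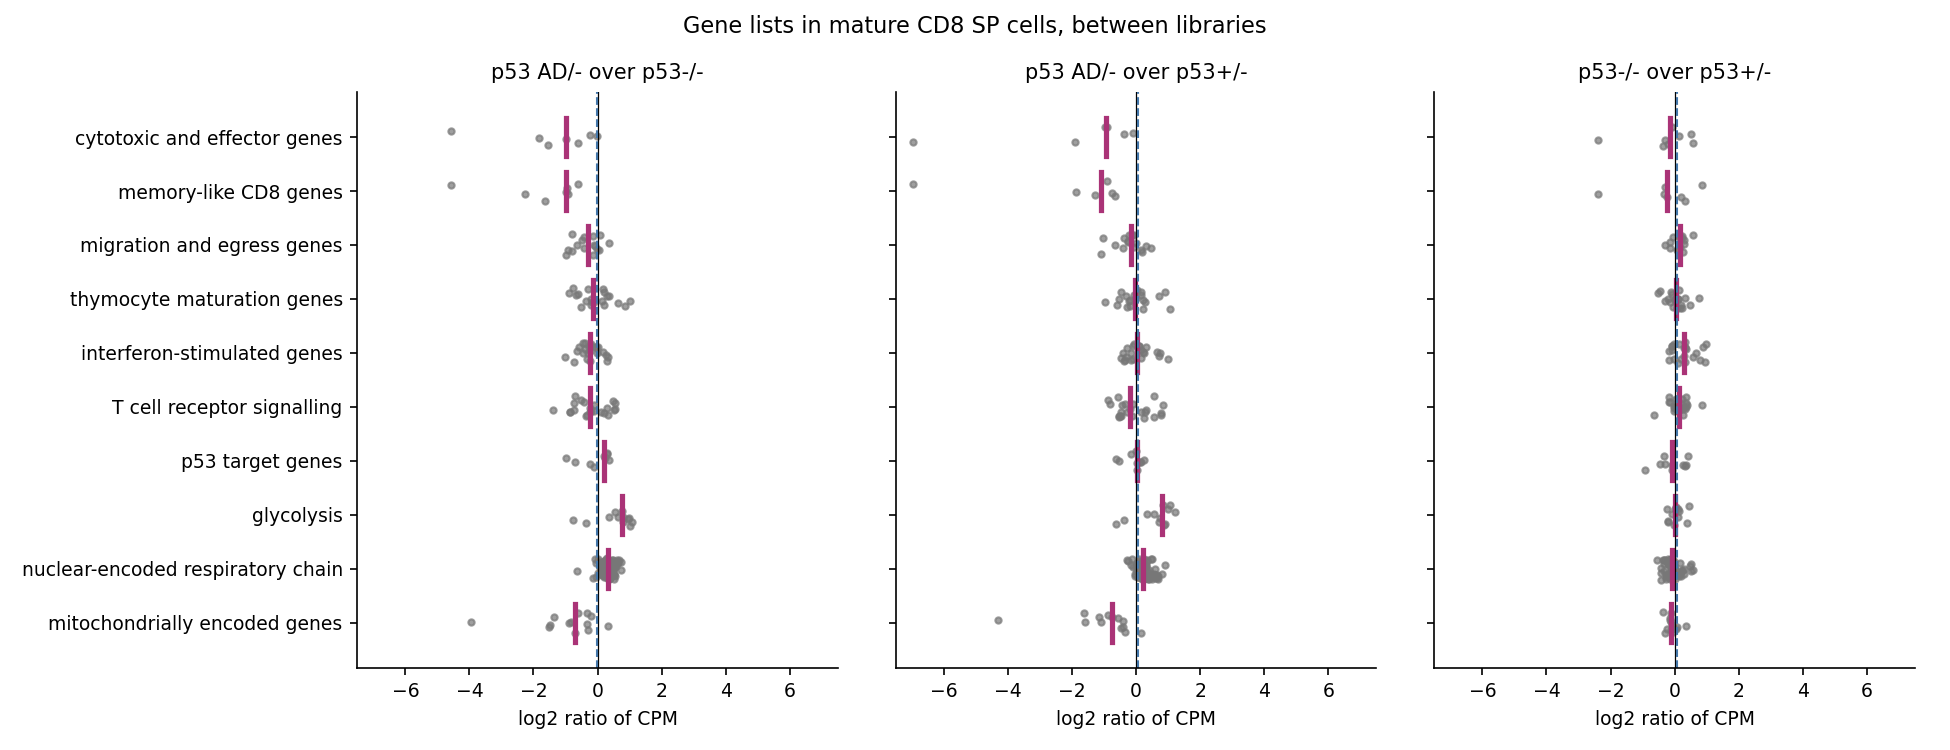
Log2 ratio of CPM between libraries within mature CD8 SP cells for 10 gene lists in 3 pairs of libraries. Grey points are genes with at least 50 UMIs over the pair (a floor of 3 UMIs is used for low counts), pink bars list medians and the blue dashed line the median of all measured genes: with p53 AD/- in the numerator the cytotoxic, memory-like and mitochondrially encoded lists lie below 0 and glycolysis above 0, while the 10 medians lie between -0.22 and 0.30 for p53-/- over p53+/-.

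Of the strongest ratios between p53 AD/- and p53-/-, some were also found in the other sets. The histone gene Hist1h2ap was at 108, 299 and 22.7 CPM (log2 ratio 3.72, 3.15 to 4.35), with 3.02 in CD4 SP and 2.82 in DP cells, and the glutathione transferase Gstp1 at 88.2, 149 and 26.1 CPM (2.52), with 2.81 and 2.57 there. Both belong to families of near-identical copies and are uncertain. Id3, an inhibitor of E proteins, was different: it stood at 132, 332 and 84.1 CPM (1.98, 1.65 to 2.32), with 2.46 in CD4 SP cells and -0.02 in DP cells. The acyl-CoA thioesterase gene Acot7 was at 19.6, 43.9 and 11.8 CPM (1.90, 0.98 to 2.90), with 1.13 and -0.16 there.

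On the low side, Tsix was at 117, 18.5 and 157 CPM (-3.09, -3.92 to -2.35) and -2.74 in both other sets, with the limit that reads of Tsix and its antisense partner cannot be told apart where the use of strand is not stated. Dennd4a (28.5, 6.94 and 53 CPM, -2.93), Neurl3 (25, 10.4 and 56.4 CPM, -2.44), the stress-response phosphatase subunit Ppp1r15a (41.0, 16.2 and 81.6 CPM, -2.33), the receptor gene P2ry10 (29.4, 12.7 and 61.4 CPM, -2.27) and Sidt1 (21.4, 8.09 and 38.7 CPM, -2.26) were lower. Each of these 5 was lowest in p53 AD/- and highest in p53-/-. Cytl1, Timp3 and S100a6 (higher in p53 AD/-), with 61, 87 and 63 UMIs in 1 cell, and Fabp4 (higher in p53-/-), with 155 of 156 UMIs in 1 cell, reached the lists of extreme ratios through single cells.

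Against p53+/-, the p53 AD/- members were lower for Spopl (42.8, 9.25 and 33.7 CPM, -2.21), Atxn2 (38.3, 9.25 and 34.5 CPM, -2.05), Nlrc5, the transactivator of MHC class I genes (41.0, 11.6 and 24.4 CPM, -1.83, -2.98 to -0.82), and the replication protein gene Rpa3 (51.7, 16.2 and 29.4 CPM, -1.68). They were higher for Itm2a (117, 334 and 146 CPM, 1.52, 1.21 to 1.83), Igfbp4 (33.9, 112 and 60.6 CPM, 1.73) and Sf3a2 (21.4, 64.7 and 32.0 CPM, 1.6). Dntt, which adds bases at receptor joints in DP cells, stood at 19.6, 91.3 and 47.1 CPM (2.22, 1.52 to 2.97). Without members that held Rag1, Rag2 or Arpp21 its ratio was 0.91. Sparc, at 58 UMIs in 1 p53 AD/- member, and S100a6 rested on single cells.

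The pair of p53-/- and p53+/- had the fewest genes past the fold. Junb, an AP-1 factor gene, was at 284, 291 and 772 CPM (log2 ratio 1.44, 1.25 to 1.63) and had 1.40 in CD4 SP and 1.39 in DP cells. Vps37b was at 103, 106 and 331 CPM (1.69, 1.39 to 2.0), with 1.18 and 1.12 there. Both were alike in p53+/- and p53 AD/- and high in p53-/- alone. The nuclear envelope gene Syne1, at 12.5, 12.7 and 46.3 CPM (1.89, 1.02 to 2.85), was high in p53-/- members but had -0.73 in CD4 SP and 0.02 in DP cells. Endou (1.64), Tubb2b (1.59) and Ptpn12 (1.5) were also higher, as was Olfr1369-ps1, with 28 of 43 UMIs in 1 cell. Lower in p53-/- were Hist1h2ap (-2.25), Gstp1 (-1.76), the stress gene Ddit4 (39.2, 38.2 and 12.6 CPM, -1.64), Tgtp2 (51.7, 28.9 and 18.5 CPM, -1.48), Wdr89 (-1.39) and Bloc1s1 (-1.16). Of 5 DP markers measured 3 were past the fold, all higher in p53-/-: Rag1 (22.3, 49.7 and 53 CPM, 1.25), Arpp21 (16.0, 30.1 and 39.5 CPM, 1.30) and Dntt (1.26). Rag1 and Dntt were past it in p53 AD/- over p53+/- too (1.16 and 2.22), so p53+/- had the lowest level of both.

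p53 targets showed no common direction in the members. Of 35 listed genes 9 were measured for p53 AD/- over p53-/-, none past the fold, with a median of 0.21 and 5 above 0. Against p53+/- the medians were 0.03 for p53 AD/- (9 measured) and -0.09 for p53-/- (10 measured), again with none past the fold. Bax, a death effector, was at 123, 124 and 100.1 CPM with intervals that span 0 in every pair. Trp53inp1 was at 81.1, 52.0 and 103 CPM, lowest in p53 AD/-, a log2 ratio of -0.98 (-1.51 to -0.48) over p53-/-. Interferon-stimulated genes had medians of -0.24, 0.02 and 0.30 in the 3 pairs in the order above, and Ifit3, lower in p53 AD/- than in p53-/-, was the one gene past the fold. Ifit1 was at 40.1, 65.9 and 77.4 CPM, with 22 of its 57 UMIs in p53 AD/- from 1 cell.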

How the data were processed

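Thymus cells of 3 mice were measured by droplet RNA sequencing, 1 library for each genotype. The authors deposited UMI counts per gene and barcode for 32285 genes, made from reads on GRCm38 per the submitters' processing notes; Cell Ranger 4.0.0 is named in the file headers. How strand and introns were treated in counting is not given in the sources here. Barcodes with at least 500 genes and under 10% mitochondrial UMIs were kept, 8150, 6171 and 9543 of 8880, 6308 and 9889. Total UMIs were 46498800, 27638820 and 54164425. No doublet caller was run; cells with over 2 times the median UMIs were left out as an alternative.

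UMIs were summed for each library and set and tested with edgeR 4.0.16 in R 4.3.3 (TMM, quasi-likelihood, library as block because both sets come from 1 animal, 2 residual degrees of freedom). Genes had at least 10 UMIs in at least 3 of the 6 sums, and 13 genes used by the rules were not tested. Same-library deviations correlated at 0.20, 0.39 and 0.30. DESeq2 1.42.0 was an alternative. Tested on simulated counts over 6985 genes, the fit against CD4 SP cells recovered 75.5% of changes of 1 and 100% of changes of 2 on the log2 scale. The simulated counts had the same mean in every library and a common dispersion. They therefore hold no differences between libraries and no genes carried by single cells, and the recovery in the real data can differ. Between genotypes no test was run. Intervals are exact, at 95%, and cover counting error only. Other tools were matplotlib 3.10.9, pandas 2.3.3, scipy 1.17.1, numpy 2.4.6 and Python 3.11.15.

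The members, the gene lists and the rule for named genes were chosen with earlier results of these data known. Named against CD4 SP cells are the 12 highest and 12 lowest called genes with 1 direction in all libraries, against DP cells 6 and 6, in each pair of libraries the 8 highest and 8 lowest ratios, the markers, and up to 4 genes of each list. Some genes that this rule names are not reported here. Receptor segments, mitochondrial, ribosomal and unnamed genes were left out of these ranks. The alternatives were other gates, cell filters, count minimums, scalings, thinning to 1500 UMIs, leaving out each library, no block and no cells with myeloid UMIs, the last added after seeing the data.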

Additional observations from a re-analysis of the deposited data

Results flagged for a closer look

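Dapl1 moved in opposite directions between libraries in the comparison of CD8 with CD4 SP cells. In p53 AD/- its log2 ratio was -0.47, whereas p53+/- gave 2.18 and p53-/- gave 3.56. The p53 AD/- value rests on 19 UMIs in 4 members and 12 UMIs in 1 CD4 SP cell. The difference between libraries was not tested, and there is 1 library for each genotype.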

How the results depend on the processing

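The share of CD8 SP cells moved beyond its interval under some gates: to 1.42% in p53+/- with a maturation sum of at least 5, to 1.40%, 1.78% and 1.43% without cells that held Rag1, Rag2 or Arpp21, to 0.632%, 1.19% and 0.912% after thinning to 1500 UMIs, and to 2.78% in p53 AD/- with at least 1000 genes. Against CD4 SP cells the count of higher genes was 156 with under 5% mitochondrial UMIs, 140 without cells holding Rag1, Rag2 or Arpp21, 9 after thinning, 104 with at least 2 Cd4 UMIs and 52 with DESeq2, and 80 to 174 on leaving out a library. Lower genes numbered 132, 16, 89 and 42 under the last 4 of these settings and 89 to 167 on leaving out a library. With no replicate block, 47 were higher and 35 lower. Against DP cells thinning left 618 higher and 682 lower, DESeq2 1510 lower and the fit with no replicate block 1639 lower.

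Between libraries, p53 AD/- over p53-/- had 28 higher and 22 lower genes after thinning, 176 and 569 with a minimum of 20 UMIs and 21 and 80 with 100 UMIs, and 118 lower with the interval beyond 0.5. For p53 AD/- over p53+/- the same settings gave 13 and 6, 218 and 394, 28 and 44, and 38 and 60 with the interval beyond 0.5. For p53-/- over p53+/- they gave 13 and 6, 227 and 106, 14 and 7, and 22 and 9. The cause of these shifts was not tested, other than that thinning and higher minimums leave fewer UMIs and genes. No gene named by rank, and no marker in the comparisons of sets, changed direction under any alternative run. Genes named only through a list were not followed one by one in this check. List medians between libraries changed sign in 30 cases, 2 of them beyond the interval of the median: after thinning the T cell receptor signalling median went from -0.24 to 0.32 for p53 AD/- over p53-/- and from -0.19 to 0.43 over p53+/-, and thinning also left more genes higher than lower in both pairs. Of 336 values of these ranked genes and markers against CD4 SP cells over all alternatives, 329 kept their direction and their side of the threshold. The 7 lost calls were Apoe, Snap47, Ifi30 and Dapl1 with DESeq2, Ecm1 and Dapl1 with no replicate block, and Dapl1 without the p53-/- library. For genes named by rank between libraries, 6 of 179, 7 of 178 and 4 of 177 values in the 3 pairs, in the order above, left their interval. Most of these values were of genes carried by few cells. After thinning Hist1h2ap stood at 6.93 and Id3 at 2.92 for p53 AD/- over p53-/-. Apoe had no value without the p53 AD/- library or without cells with myeloid UMIs, where it falls under the count filter. Depth limits genes under about 50 UMIs over a pair, and 1 animal for each genotype limits every comparison of genotypes.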

Other observations

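Cytokine and stress-response genes of the members not described above also differed between libraries, with no replicate check. Tgfbr2, a receptor chain for TGF-beta, was at 107, 34.7 and 85.8 CPM in p53+/-, p53 AD/- and p53-/-, lowest in p53 AD/-. Its log2 ratio over p53-/- was -1.31 (-1.95 to -0.71), and over p53+/- it was -1.62 (-2.25 to -1.04); in CD4 SP cells these were -0.57 and -0.53. The kinase gene Pim1 was at 20.5, 20.8 and 50.5 CPM, highest in p53-/-, and Il6st, the shared receptor chain gp130, at 61.5, 42.8 and 94.2 CPM. Of 18 measured cytokine receptor and feedback genes 16 were below 0 for p53 AD/- over p53-/-, with a median of -0.50, and 13 of 16 over p53+/-, with a median of -0.20. In CD4 SP cells, DP cells and all kept barcodes the medians were -0.53, -0.31 and -0.24 over p53-/-. Over p53+/- they were -0.27, -0.02 and -0.09, so the direction was not limited to CD8 SP cells. The antiproliferative gene Btg1 was at 873, 628 and 1525 CPM, highest in p53-/-, and had a ratio of -1.28 for p53 AD/- over p53-/- in the members and -1.11 in CD4 SP cells. The RNA-decay factor gene Zfp36l2 was at 282, 91.3 and 222 CPM, lowest in p53 AD/-, and its ratio over p53+/- was -1.62 in the members, -1.83 in CD4 SP and -2.67 in DP cells.

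The cytoskeletal gene Vim was at 469, 982 and 546 CPM, highest in p53 AD/- (1.07, 0.91 to 1.23, over p53+/-), and the lectin gene Lgals1 at 365, 598 and 296 CPM (1.01, 0.82 to 1.21, over p53-/-). Both had ratios above 0.6 in CD4 SP and DP cells for the same pairs. Markers of cycling cells summed to 778, 1198 and 829 CPM in the members, highest in p53 AD/-, although cells with more than 1 UMI over Mki67 and Top2a had been left out. The order was the same in CD4 SP cells (675, 1223 and 886 CPM) and DP cells (985, 1284 and 1010.2 CPM). Of 4 such markers measured in the members 2 were above 0 over p53-/- and 3 over p53+/-, with none past the fold.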
